A study of Bos taurus with 45 samples.

Results

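Each of 15 Angus-Hereford cross heifers gave a sample of ruminal papillae at the low end and at the next sampled point of a stepwise grain transition, and the change between these samples was compared among 3 groups of 5 heifers. The 30 samples on 0% and 72% grain were used of the 45 in the series, and the 15 samples on 89% grain were left out of the comparisons. The groups were named by what the mean ruminal pH did at a later step, from 72% to 89% grain: it fell in the down group (DG, heifers 192, 314, 236, 170 and 182), stayed similar in the balanced group (BG, heifers 172, 294, 246, 362 and 258) and rose in the up group (UG, heifers 262, 178, 352, 286 and 360). Per the paper, the step studied here lowered ruminal pH in each of the groups, and the groups were defined by the step after it. By the paper's means, pH on 72% grain was highest in DG, intermediate in BG and lowest in UG. Group and ruminal pH at the 72% sampling can therefore not be told apart here. All heifers received the same treatment, which the paper names rapid grain adaptation and describes as a gradual transition, and served as their own reference. The study's control heifers are not analysed here, so that in these samples diet, days on trial and repeated sampling cannot be told apart. The labels give the diets as 3% grain on days 1 to 4 and 75% grain on days 13 to 16, with intermediate diets in between, and the percentages of the paper are used here.

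The ruminal papillae carry a stratified squamous epithelium that absorbs the short-chain fatty acids made by the rumen microbes, and it is a barrier between the rumen contents and the blood. Grain ferments faster than forage, which raises the supply of short-chain fatty acids and lowers ruminal pH. Animals on the same diet are known to differ in how far their ruminal pH falls and in how they recover. The question of this comparison was whether groups defined by their pH change at the next step differed in the transcriptional response of the papillae to this step.

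Expression was given as RPM, a count of reads scaled to 1000000 reads on genes in each sample, and changes are differences of log2(RPM + 1) within a heifer. Each sample had 22.5 M to 36.6 M reads on genes (M, 1000000 reads), with a median of 30.3 M, and RPM 1 stood for 22.5 reads or more. Tests covered 11516 of the 24616 genes, those above RPM 1 in every heifer on 1 or more of the 3 diets. Libraries of heifers 172 (BG), 170 (DG) and 294 (BG) on 0% grain were the least like the others. Their median correlations with the other samples on 0% grain were 0.957, 0.963 and 0.972, the lowest of the 30 samples. UG heifer 262 came next, at 0.974 on 0% grain and 0.973 on 72% grain, so this measure did not set heifer 294 apart. Values without heifers 172, 170 and 294, an alternative chosen after seeing the data, are given where they change a call, a direction or a size. The files do not pair gene IDs with names, and symbols are printed only where the paper gives them. The paper pairs 12 of the genes named here with an ID. For *CYP1A1*, *CYP1B1*, *CHAC1*, *CDSN* and *KLK10* it gives the symbol and not the ID, and these were assigned to IDs by the direction and size of the fold changes it lists, so that their identity is less sure. Markers of the epithelium and of other cell types could therefore not be looked up, and a change of cell makeup and a change of RNA per cell cannot be told apart in these bulk samples.

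The size of the response of the papillae to the step overlapped among the 3 groups. The root mean square (RMS) change over all tested genes, a measure of how far a heifer's transcriptome moved, was 0.308, 0.274, 0.295, 0.473 and 0.416 in the DG heifers in the order given above, 0.513, 0.462, 0.368, 0.346 and 0.343 in the BG heifers, and 0.424, 0.342, 0.562, 0.431 and 0.290 in the UG heifers. The 3 ranges overlapped, with the highest value in UG heifer 352 and the lowest in DG heifer 314. Mean RMS change was 0.353 ± 0.0865 (SD, n = 5) in DG, 0.406 ± 0.0770 (SD, n = 5) in BG and 0.410 ± 0.103 (SD, n = 5) in UG. Group held 9.46% of the variance between heifers, and the exact permutation test over 756756 assignments gave p = 0.545. Here and below, some share arises without any group effect, and a larger one with fewer heifers, so shares are read by their p-values. Without heifers 170, 172 and 294, of which 170 had the highest RMS change in DG and 172 and 294 the highest in BG, group held 24.1% of the variance (exact permutation p = 0.282). Over the 3 pairs of groups, two-sided exact permutation p-values adjusted over the pairs were 0.560 for DG against BG, 0.560 for DG against UG and 0.960 for BG against UG. By inversion of the same test, the difference of DG minus UG lay between -0.205 and 0.0839, that of DG minus BG between -0.188 and 0.0875, and that of BG minus UG between -0.141 and 0.127 (95% intervals). Differences as large as the SD within a group lie inside these intervals.

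**Figure D1:**
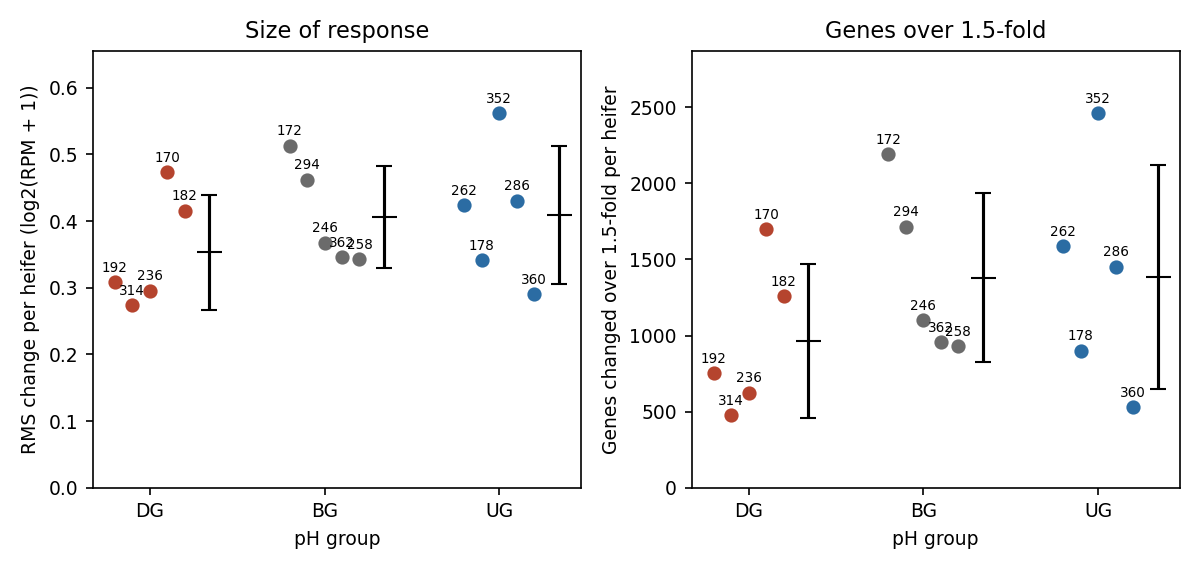
Size of the response to the step per heifer: the RMS change in log2(RPM + 1) over all tested genes (left) and the number of genes changed more than 1.5-fold (right), by pH group, with each heifer's number beside its point and the mean ± SD of 5 heifers as the black bar. The groups overlap in both measures; UG holds the heifer with the most changed genes (352, with 2460).

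Counts of changed genes overlapped as well. A change over 1.5-fold in either direction was seen in 477 to 1699 genes per DG heifer, 929 to 2192 genes per BG heifer and 529 to 2460 genes per UG heifer, with medians of 751, 1100 and 1453. The exact permutation test of these counts gave p = 0.470. More of the changed genes were higher than lower on 72% grain in 14 heifers. The exception was UG heifer 286, with 859 genes lower and 594 higher.

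The shift of the whole distribution was largest in UG. The median change over all tested genes was 0.05 in DG, 0.09 in BG and 0.12 in UG, and single heifers ranged from -0.02 (UG heifer 286 and DG heifer 236) to 0.26 (UG heifer 352). Scaling by the trimmed mean of M-values (TMM) brought the 3 medians to -0.0042, -0.0086 and -0.0015, so changes within UG are read against 0.12. Between groups the shift was smaller, at -0.08 for DG minus UG, -0.05 for DG minus BG and -0.03 for BG minus UG.

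The exact test of the change profiles did not separate the groups. Group held 17.9% of the variance of the change profiles over the tested genes (exact permutation p = 0.119). In pairs of groups, the share was 16.5% for BG and UG (p = 0.0635), 15.4% for DG and UG (p = 0.0714) and 9.84% for DG and BG (p = 0.540) by exact permutation, and after adjustment over the 3 pairs the p-values were 0.107, 0.107 and 0.540. Correlations between heifers, computed across genes, are given as a description, since heifers share the sequencing protocol and the composition of the RNA. Their median was 0.168 within DG, 0.238 within BG and 0.240 within UG, against 0.247 between DG and BG, 0.185 between BG and UG and 0.133 between DG and UG. For 10 of the 15 heifers, the heifer with the most similar change belonged to another group. Each heifer had more possible partners outside its group than within it, so most would lie outside without any grouping. The heifers closest to one of their own group were 262, 178, 352 and 286 of UG and 314 of DG.

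**Figure D2:**
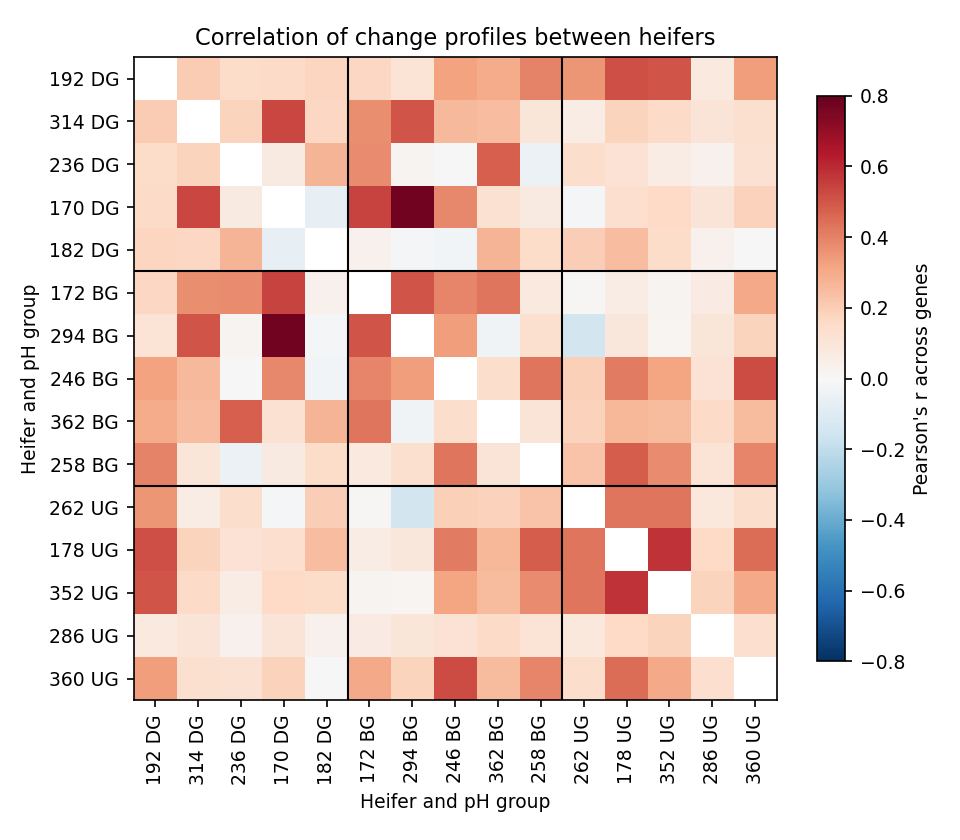
Pearson's r between the change profiles of 2 heifers across the tested genes, with heifers in the order of the text and black lines between the pH groups; the diagonal is left blank. The pair with the highest r, 0.772, is heifer 170 of DG with heifer 294 of BG; the median r is 0.172 for pairs within a group and 0.152 for pairs of different groups.

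The most similar pair crossed the groups. Heifers 170 (DG) and 294 (BG) correlated at r = 0.772, 170 and 172 (BG) at 0.538, and 172 and 294 at 0.504. Pairs among the other 12 heifers had a median of 0.182 and reached 0.575 in UG heifers 178 and 352. DG heifer 314 was also close to some of these heifers, at 0.537 with 170, 0.501 with 294 and 0.370 with 172. Heifers 170, 172 and 294 are the 3 whose samples on 0% grain had the lowest median correlations. In these 3, *KLK10*, which encodes a secreted serine protease of the kallikrein family, was at 61.0, 41.0 and 89.3 RPM on 0% grain in heifers 170, 294 and 172, and at 0.276 to 9.07 RPM in the other 12 heifers. Its change was -3.37, -2.47 and -4.43 in the same 3 heifers, whereas it was between -0.11 and 3.48 in the others and above 0 in 11 of them. C-X-C motif chemokine 6 (CXCL6), a chemokine that attracts neutrophils, behaved alike, at 17.6 to 26.4 RPM on 0% grain in the 3 heifers against 0.563 to 7.84 RPM in the other 12, with changes of -2.80 to -2.11 against -0.21 to 1.47. *CHAC1*, an enzyme that degrades glutathione and is induced by cell stress, was also higher on 0% grain in the 3 heifers (7.45 to 16.1 RPM) than in the other 12 (0.0351 to 4.98 RPM). The opposite was seen for *CDHR2*, a cadherin of the brush border of transporting epithelia, whose change was 1.13 to 1.78 in the 3 heifers and -1.68 to 0.28 in the others. These genes were singled out after their values were seen, and no test was made of the 3 heifers against the other 12. The 3 heifers belong to DG (1) and BG (2), so any difference of either group from UG in these genes carries their values.

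No gene passed the test for an interaction of group and diet. In limma (adjusted p under 0.05), the smallest adjusted p was 0.526, and 0 of 11516 genes (0.0%) were called. At an unadjusted p under 0.05 there were 882 genes (7.66%). The quasi-likelihood test of edgeR on the reads recovered from RPM also called 0 genes (0.0%; 855 genes at unadjusted p under 0.05), whereas DESeq2 on the same reads called 12 genes (0.104%; 1000 genes at unadjusted p under 0.05), *FOSB* among them. Leaving out each heifer in turn left the count in limma at 0, with the smallest adjusted p between 0.0548 (without DG heifer 182) and 0.861 (without UG heifer 352). The 95% interval of a difference in change between 2 groups had a median half-width of 0.34 on the log2 scale, which is 1.27-fold. This interval is not adjusted over the 11516 genes, so for the typical gene a call needed a still larger difference.

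**Figure D3:**
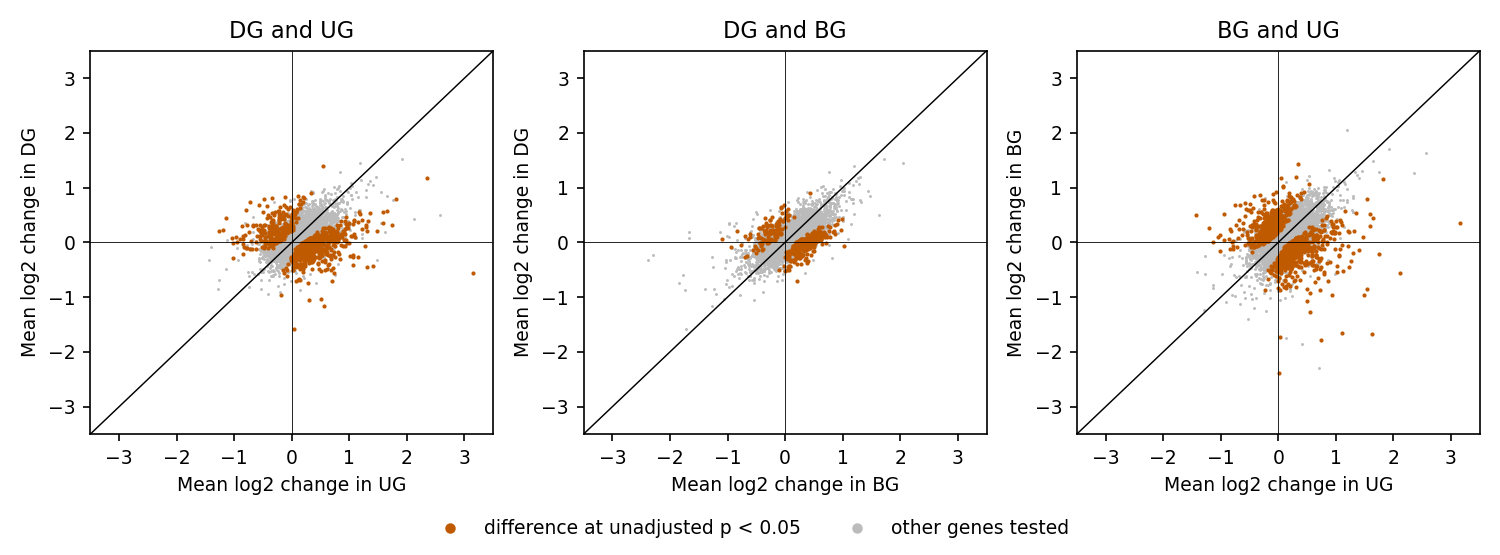
Mean change per gene in one pH group against another, in log2(RPM + 1), for the 11516 tested genes; the diagonal marks equal change, and orange points differ between the 2 groups at an unadjusted p under 0.05 in limma. There are 1048 orange points for DG and UG, 427 for DG and BG and 1178 for BG and UG; none of them passed adjustment.

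In pairs of groups, limma likewise called 0 genes (0.0%) in each of the 3 comparisons, with smallest adjusted p-values of 0.313 for DG against UG, 0.438 for BG against UG and 0.9995 for DG against BG. At an unadjusted p under 0.05, BG and UG differed in 1178 genes (10.2%), of which 497 had the higher change in BG and 681 in UG. For DG and UG there were 1048 genes (9.1%), with the higher change in DG for 277 and in UG for 771. For DG and BG there were 427 genes (3.71%), with the higher change in DG for 125 and in BG for 302. Genes for which the 5 changes of one group all lay above the 5 of the other numbered 185 (1.61%) for DG and UG, 116 (1.01%) for BG and UG and 47 (0.408%) for DG and BG. Of these, the changes in DG lay below those in UG for 127 (1.1%) and above for 58 (0.504%), those in BG lay below UG for 63 (0.547%) and above for 53 (0.46%), and those in DG lay below BG for 29 (0.252%) and above for 18 (0.156%). These splits by direction carry the shift of the median between groups given above. In limma after TMM scaling, 903 (DG and UG), 1222 (BG and UG) and 412 (DG and BG) genes were at unadjusted p under 0.05. DESeq2 called 11 genes (0.0955%) for DG against UG, 8 (0.0695%) for BG against UG and 0 (0.0%) for DG against BG, where 433 genes were at unadjusted p under 0.05. By edgeR 0 genes (0.0%) were called in each pair, and 870, 1183 and 402 genes were at unadjusted p under 0.05 for DG against UG, BG against UG and DG against BG.

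*FOSB* (ENSBTAG00000008182), an immediate early gene that encodes a subunit of the transcription factor AP-1, was the gene with a known symbol that stood highest by the interaction test. In DG it went from 12.2, 15.5, 8.32, 8.86 and 13.2 RPM on 0% grain to 3.19, 3.05, 4.30, 5.56 and 0.948 RPM on 72% grain. In BG it went from 35.0, 3.20, 11.4, 21.4 and 12.1 RPM to 4.55, 0.850, 6.34, 4.47 and 2.37 RPM. It was lower on 72% grain in all 10 of these heifers. The paper lists *FOSB* among genes that met its expression threshold on 0% grain only, which favours a fall at this step. In UG it went from 1.65, 6.11, 1.17, 7.84 and 6.25 RPM to 1.29, 7.55, 1.30, 4.76 and 10.5 RPM, higher in 3 heifers and lower in 2. On 0% grain the UG heifers lay below all DG heifers, and on 72% grain the groups overlapped. The change was -1.59 ± 0.29 (SE) in DG (limma adjusted p = 0.0656), -1.73 ± 0.29 in BG (adjusted p = 0.0105) and 0.04 ± 0.29 in UG (adjusted p = 0.943), where it was -0.05 after TMM scaling. DESeq2 called the fall in DG as well (-1.95, adjusted p = 4.68e-05), and edgeR did not (-1.93, adjusted p = 0.0756). The difference between BG and UG was -1.76 (95% interval -2.63 to -0.90), with no overlap between their heifers, but its adjusted p was 0.438 in limma, where the interaction had an unadjusted p of 7.48e-04 and an adjusted p of 0.643. DESeq2 gave adjusted p-values of 0.0310 for the interaction and 0.0243 for BG against UG. The fall in BG was no longer called without heifer 172 (change -1.48, adjusted p = 0.0747) or without heifers 170, 172 and 294 (-1.59, adjusted p = 0.0829), nor in fits without a term for the heifer (adjusted p = 0.0648) or with all 45 samples (adjusted p = 0.0939).

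*LIFR* (ENSBTAG00000010423), the receptor for leukemia inhibitory factor, a cytokine of the interleukin-6 family, differed in direction. In UG it went from 3.37, 3.34, 3.03, 3.53 and 1.59 RPM to 1.86, 1.65, 2.02, 1.97 and 0.892 RPM, lower in all 5 heifers. In BG it went from 0.459, 2.16, 5.675, 5.81 and 4.28 RPM to 3.03, 5.47, 6.38, 8.22 and 4.18 RPM, and in DG from 6.26, 3.20, 5.01, 2.29 and 2.66 RPM to 5.20, 3.23, 7.30, 3.78 and 5.26 RPM, higher in 4 of 5 heifers of each group. The 5 changes in UG, from -0.71 to -0.42, all lay below those of both other groups, which went from -0.03 to 1.47 in BG and from -0.23 to 0.77 in DG. The change itself was -0.56 in UG (limma adjusted p = 0.0694), 0.61 in BG (adjusted p = 0.0536) and 0.31 in DG (adjusted p = 0.449), and limma called none of them, whereas DESeq2 called the fall in UG (-0.95, adjusted p = 0.0227). BG minus UG was 1.17 (95% interval 0.62 to 1.72; adjusted p = 0.438 in limma and 0.0413 in DESeq2). Heifers 172 and 294 had the largest changes, 1.47 and 1.03, and without heifers 170, 172 and 294 the change in BG was 0.19 and the difference was 0.74 with an unadjusted p of 0.00521 and an adjusted p of 0.999.

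Of the 12 genes with the smallest p in the interaction test, 4 without a name are given by ID, 2 that rose and 2 that fell in UG, chosen after their values were seen. ENSBTAG00000013831 had the largest difference between DG and UG of the 11516 genes. In UG it rose from 7.12, 4.25, 3.25, 3.61 and 34.5 RPM to 46.9, 37.1, 131, 39.2 and 167 RPM, by 3.15 on the log2 scale (limma adjusted p = 0.00377). In DG it went from 76.6, 57.0, 8.24, 51.1 and 38.5 RPM to 96.8, 56.4, 8.64, 65.2 and 2.51 RPM, with a change between -0.01 and 0.35 in 4 heifers and of -3.49 in heifer 182. In BG the level spanned 2.92 to 274 RPM on 0% grain and 4.90 to 191 RPM on 72% grain, with changes of -0.52 to 1.51. The UG changes, from 2.25 to 4.96, did not overlap with those of the other groups. DG minus UG was -3.70 (95% interval -5.09 to -2.32), with an adjusted p of 0.313 in limma and 0.00233 in DESeq2. Without a term for the heifer, its rise in UG was not called (adjusted p = 0.0773).

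ENSBTAG00000014536 had a smaller and more even difference. In UG it rose from 9.72, 9.41, 7.43, 13.0 and 16.4 RPM to 18.1, 17.1, 14.5, 20.1 and 20.3 RPM (change 0.68, limma adjusted p = 0.00415), while the 5 DG heifers went from 12.7 to 18.9 RPM to 10.7 to 19.1 RPM and the 5 BG heifers, at 12.9 to 17.4 RPM on 0% grain, had changes of -0.22 to 0.20. On 72% grain the groups overlapped, and 3 of the 5 UG heifers started below every other heifer. After TMM scaling the rise in UG was 0.56, under the 1.5-fold minimum. ENSBTAG00000032819 fell in all 5 UG heifers, from 66.9, 95.9, 76.5, 73.0 and 50.0 RPM to 23.4, 45.8, 40.0, 42.0 and 27.5 RPM (change -1.01, limma adjusted p = 4.03e-04). Its change was -0.71 to 0.07 in DG and -0.43 to 0.23 in BG, above all UG values of -1.48 to -0.78, and BG minus UG was 0.85 (95% interval 0.50 to 1.20; adjusted p = 0.438 in limma and 0.0236 in DESeq2). ENSBTAG00000008743 fell in UG from 99.6, 102, 138, 102 and 101 RPM to 48.9, 60.4, 46.8, 39.0 and 75.0 RPM (change -1.02, limma adjusted p = 0.00945), a call lost without heifer 352 (adjusted p = 0.0672). Its changes were -0.33 to 0.82 in DG and -0.32 to 0.71 in BG. Heifers 170, 172 and 294 had its highest changes, and BG minus UG was 1.16, against 0.81 without them.

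**Figure D4:**
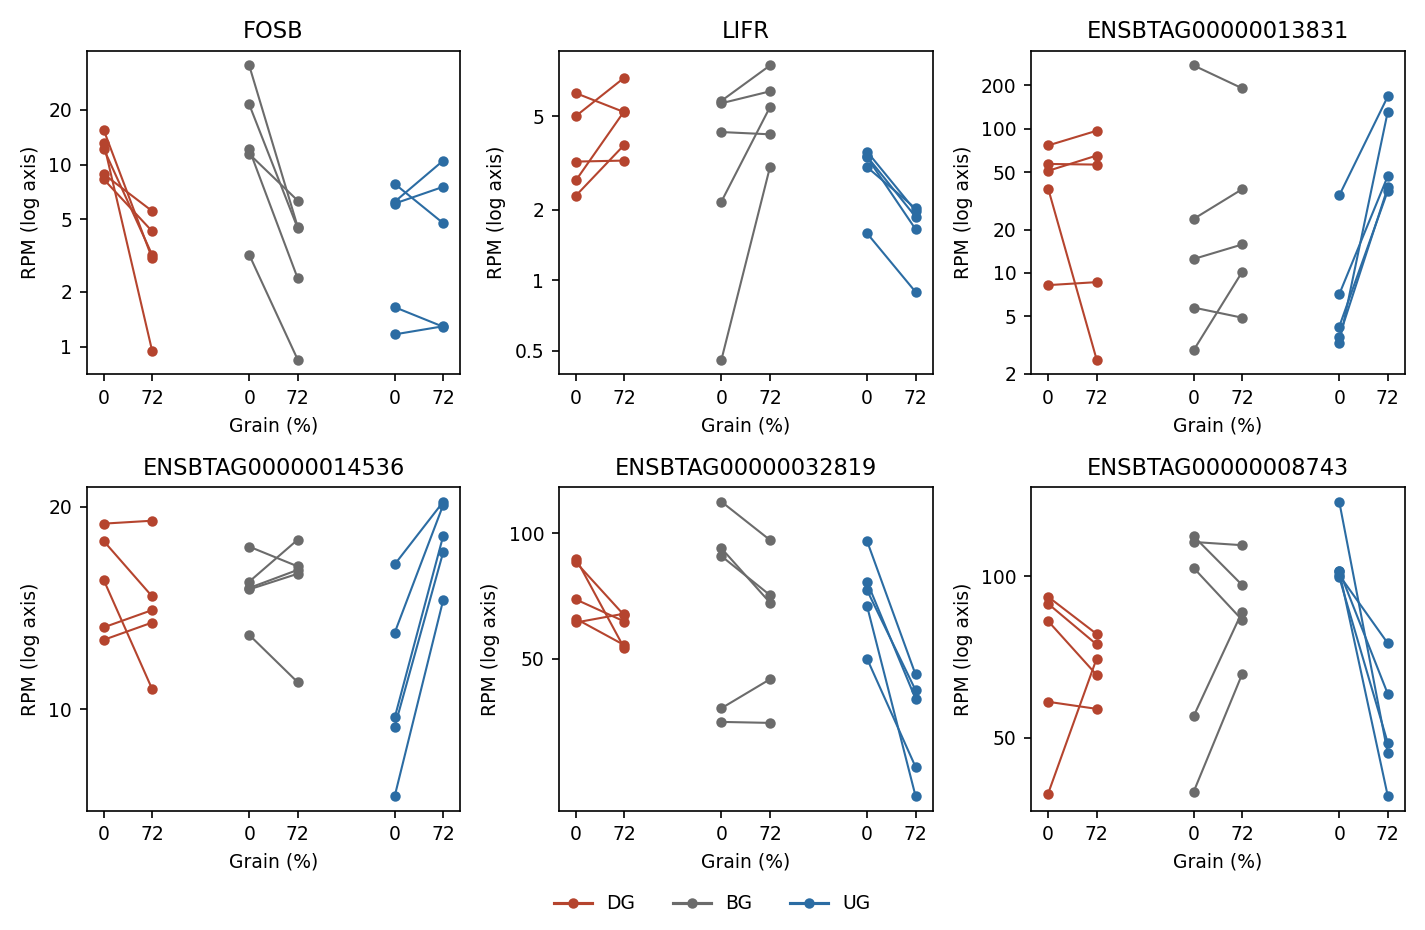
RPM on 0% and 72% grain of 6 of the 12 genes with the smallest interaction p, namely the 2 with a symbol and 4 chosen after their values were seen, 1 line per heifer, coloured by pH group, on a log axis. *FOSB* falls in all 10 DG and BG heifers and *LIFR* falls in all 5 UG heifers; ENSBTAG00000013831 and ENSBTAG00000014536 rise and ENSBTAG00000032819 and ENSBTAG00000008743 fall in all 5 UG heifers.

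Within groups, the step changed many genes in BG and UG and none in DG by the same test. A gene was called where limma gave an adjusted p under 0.05 and it changed more than 1.5-fold. By this rule there were 287 genes (2.49%) in UG, of which 261 (2.27%) rose and 26 (0.226%) fell, and 265 genes (2.3%) in BG, of which 236 (2.05%) rose and 29 (0.252%) fell. After TMM scaling, 119 genes rose and 57 fell in UG, and 96 rose and 57 fell in BG. In DG 0 genes (0.0%) were called by limma, with a smallest adjusted p of 0.0656, and 0 (0.0%) by edgeR, although 1696 genes (14.7%) were at an unadjusted p under 0.05 in limma, against 3013 (26.2%) in BG and 3213 (27.9%) in UG, and DESeq2 called 115 genes (0.999%; 82 up, 33 down). The counts rested on single heifers. In BG 5 genes were called without heifer 172, 101 without heifer 246 and 0 without heifers 170, 172 and 294 (1707 genes at unadjusted p under 0.05). In UG 29 were called without heifer 352, 103 without heifer 178, 136 without heifer 262 and 493 without heifer 286. In DG 3 genes were called when BG heifer 172 was left out of the shared fit and 2 when UG heifer 262 was. These counts do not test a difference between groups, for which limma and edgeR called 0 genes in each pair and DESeq2 the 11 and 8 genes given above.

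Changes that held in every heifer of a group were most common in UG. Genes higher on 72% grain in 5 of 5 heifers numbered 2232 (19.4%) in UG, 1818 (15.8%) in BG and 1291 (11.2%) in DG, and those lower in 5 of 5 numbered 395 (3.43%), 432 (3.75%) and 458 (3.98%). These counts carry the shift of the median in UG given above.

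Most genes that rose in one group were also higher in the others. The 261 genes that rose in UG had a median change of 0.76 there, 0.42 in BG and 0.30 in DG, and 245 and 240 of them were also higher in BG and DG, against medians of 0.09 and 0.05 and shares of 69.0% and 62.7% over all tested genes. The 236 genes that rose in BG had a median change of 0.71 there, 0.42 in DG and 0.41 in UG, with 234 and 228 higher in DG and UG. The 26 genes that fell in UG had a median of -0.81 there, -0.12 in BG and -0.11 in DG, with 16 and 18 also lower, and the 29 that fell in BG had a median of -0.79 there, -0.49 in DG and -0.22 in UG, with 26 and 21 also lower. Over all tested genes, 37.3% were lower in DG, 31.0% in BG and 24.65% in UG. A larger median in the group of the call follows from the choice of the genes. BG and UG shared 56 called genes, all in the same direction, which is 21.1% of those of BG and 19.5% of those of UG. Of the 231 genes called in UG only and the 209 called in BG only, 0 differed from another group after adjustment in limma. This follows from the 0 genes called in each pair. At an unadjusted p under 0.05 in limma, 146 and 89 of them differed from another group, which their choice favours.

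The genes with a symbol were picked by the study on these samples and are not independent evidence. Of the 17 genes, 15 passed the filter and 2 (*CHAC1* and *CDSN*) did not. Among the 15, limma called *FOSB*, *VNN1* and *CYP1B1* falling and *LOXL2* rising in BG, and *CYP1B1* falling and *LOXL2* and *CXorf57* rising in UG. By limma none of the 15 was called in DG or for a difference between groups. DESeq2 called *FOSB* and *VNN1* falling in DG, *CYP1A1* and *LIFR* falling in UG, and *FOSB* and *LIFR* for BG against UG.

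*CDSN* encodes corneodesmosin, an adhesion protein of cornified cells, and went in UG from 0.421, 4.90, 11.4, 3.94 and 11.2 RPM on 0% grain to 16.5, 24.1, 49.8, 67.5 and 30.5 RPM on 72% grain. Its change was 1.37 to 3.79 in UG, above all DG values of -1.26 to 0.75, and it overlapped with BG, at -1.46 to 1.5. In the fit without the filter on low values, the change in UG was 2.58 (limma adjusted p = 0.0197), and DG minus UG was -2.49 (unadjusted p = 0.00113, adjusted p = 0.657). *CHAC1* was higher on 72% grain in 4 of 5 UG heifers, with changes of -0.01 to 3.86 (mean 1.77, adjusted p = 0.111), against -1.57 to 0.57 in DG and -2.63 to 1.84 in BG. *KLK10* was higher in all 5 UG heifers, with changes of 0.90 to 3.17 (mean 2.12, adjusted p = 0.123). In DG and BG it ranged from -3.37 to 3.48 (mean 0.43) and from -4.43 to 2.65 (mean -0.56). Without heifers 170, 172 and 294 the mean changes were 1.38 in DG, 1.37 in BG and 2.12 in UG, where limma then called the rise (adjusted p = 0.0189), and DG minus UG was -0.74 (adjusted p = 0.751) in place of -1.69 (adjusted p = 0.650). The UG heifers were the same in both fits, and *KLK10* was singled out by its values in the 3 heifers left out. Leaving those heifers out therefore favours the call in UG. For *CDSN*, *CHAC1* and *KLK10*, the paper reports a fall in UG and a rise in DG at the next step. They were named, and their IDs assigned, by those changes. That step starts from the same samples on 72% grain, so the choice favours high values there in UG and low ones in DG. A rise in UG and a negative DG minus UG are thereby favoured for these genes.

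**Figure D5:**
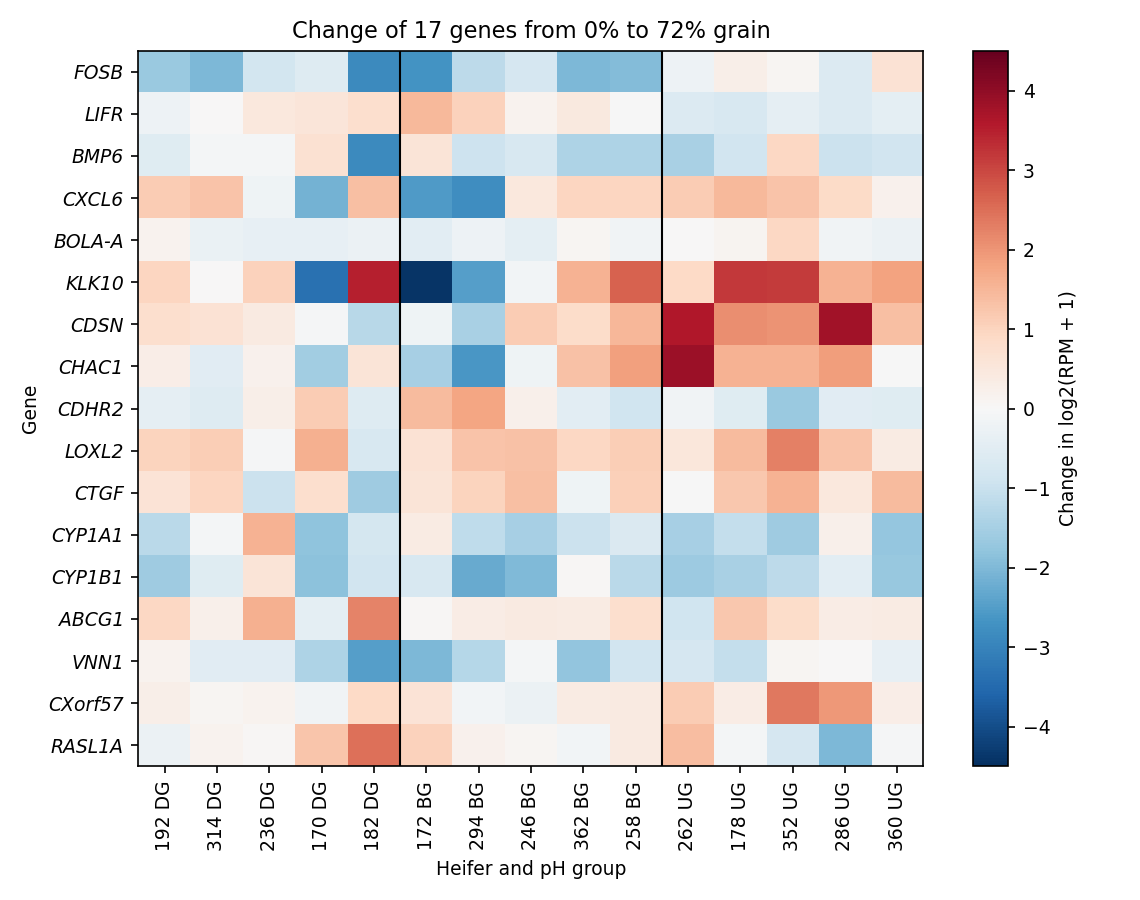
Change in log2(RPM + 1) from 0% to 72% grain of the 17 genes with a symbol (rows) in each heifer (columns, ordered by pH group with black lines between groups); red is higher and blue lower on 72% grain. *CDSN* is higher in all 5 UG heifers (1.37 to 3.79), and *KLK10* is strongly lower in heifers 170, 172 and 294 (-4.43 to -2.47).

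Of 2 genes of the extracellular matrix, 1 rose in both BG and UG. *LOXL2*, a lysyl oxidase that crosslinks collagen, rose by 1.06 in BG (limma adjusted p = 0.0369) and by 1.17 in UG (adjusted p = 0.0280), higher in all 10 heifers. In DG its change was 0.58 (adjusted p = 0.351), with values of 0.99, 1.11, -0.04, 1.60 and -0.74. DG minus UG was -0.58 with a 95% interval of -1.43 to 0.27. The call in BG was lost on leaving out any of the 5 BG heifers (adjusted p 0.0531 to 0.106) or heifers 170, 172 and 294 together (0.178), and that in UG without heifer 178 (0.0888) or 352 (0.168). In limma, the call in BG was also lost after TMM scaling (adjusted p = 0.05345), after median-of-ratios scaling (0.0529) and without the filter (0.0871). That in UG was lost without the filter (0.0597) and with only UG samples in the fit (0.0673). By edgeR neither call was made (adjusted p = 0.0624 in BG and 0.0648 in UG). *CTGF*, a matricellular growth factor, had changes of 0.77 in BG, 0.92 in UG and -0.05 in DG, where heifers 236 and 182 were at -0.98 and -1.61. The difference between DG and UG was -0.97 (95% interval -1.96 to 0.02; adjusted p = 0.544).

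The aryl hydrocarbon receptor targets *CYP1A1* and *CYP1B1*, cytochrome P450 enzymes that oxidise xenobiotics, were lower on 72% grain in most heifers of each group. *CYP1B1* fell by 1.23 on the log2 scale in BG (limma adjusted p = 0.0312) and by 1.29 in UG (adjusted p = 0.0280), and its change in DG was -0.86 (adjusted p = 0.219). Mean levels went from 33.4 ± 19.6 to 12.1 ± 3.36 RPM in BG, from 30.4 ± 14.6 to 11.6 ± 5.08 RPM in UG and from 44.3 ± 28.5 to 24.7 ± 16.0 RPM in DG (SD, n = 5). *CYP1B1* was higher on 72% grain in DG heifer 236 (0.59) and BG heifer 362 (0.04), and *CYP1A1* in DG heifer 236 (1.55), BG heifer 172 (0.38) and UG heifer 286 (0.22). Leaving out BG heifer 172, 294, 246 or 258 ended the call in BG (adjusted p 0.0613 to 0.110), as did leaving out heifers 170, 172 and 294 together (0.210), and leaving out UG heifer 262, 178, 352 or 360 ended that in UG (0.0554 to 0.113). *CYP1A1* had changes of -0.48 in DG, -0.77 in BG and -1.14 in UG (adjusted p = 0.578, 0.194 and 0.0658), and the change in UG was called by DESeq2 (adjusted p = 0.0382) and by limma without heifers 170, 172 and 294 (adjusted p = 0.0446). No difference between groups was called for either gene, with a DG minus UG difference of 0.43 (95% interval -0.51 to 1.38) for *CYP1B1* and 0.66 (-0.44 to 1.76) for *CYP1A1*. Both genes were named, and their IDs assigned, by a rise in UG and a fall in DG at the next step. That step starts from the same samples on 72% grain, so a fall in UG and a positive DG minus UG are favoured here.

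*VNN1*, a pantetheinase linked to oxidative stress, fell in all 5 BG heifers, by 1.20 on the log2 scale (limma adjusted p = 0.0312), a call lost without heifer 172 (0.161), 294 (0.0612) or 362 (0.0713), or without heifers 170, 172 and 294 (0.318). Its change was -0.95 in DG (adjusted p = 0.178 in limma and 0.0475 in DESeq2), where heifers 170 and 182 were lowest at -1.40 and -2.48, and -0.41 in UG (adjusted p = 0.387). BG minus UG was -0.79 (95% interval -1.71 to 0.14). CXCL6 was higher on 72% grain in all 5 UG heifers, with changes of 0.19 to 1.47 (mean 0.99, adjusted p = 0.243), and its mean change was 0.29 in DG and -0.58 in BG. Without heifers 170, 172 and 294 the mean changes were 0.90 in DG, 0.81 in BG and 0.99 in UG, where limma then called the rise (adjusted p = 0.0207), and 11 of these 12 heifers were higher on 72% grain. CXCL6 was singled out by its values in the heifers left out, which favours this call. *BMP6*, a growth factor of the bone morphogenetic protein family, was lower in 4 of 5 heifers of each group, with mean changes of -0.58, -0.77 and -0.65 in DG, BG and UG and no call. *BOLA-A*, which belongs to the class I major histocompatibility complex, had mean changes of -0.22, -0.25 and 0.12. Since class I genes resemble each other in sequence, its counts are uncertain.

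*CXorf57* rose by 1.23 in UG (limma adjusted p = 0.0125), with changes from 0.29 in heifer 360 to 2.38 in heifer 352, against means of 0.25 in DG and 0.19 in BG. Without heifer 352 the call was lost (adjusted p = 0.0865), and DG minus UG was -0.98 (95% interval -1.71 to -0.24) with an unadjusted p of 0.0124 and an adjusted p of 0.542. *ABCG1*, a transporter that exports cholesterol, had changes of 0.91 in DG, 0.39 in BG and 0.36 in UG and was called in none. Its DG values spread from -0.44 to 2.24. *RASL1A* had changes of 0.74, 0.32 and -0.31 in DG, BG and UG, and *CDHR2* of -0.03, 0.41 and -0.69, lower in all 5 UG heifers. BG minus UG for *CDHR2* was 1.10 (95% interval 0.10 to 2.10; adjusted p = 0.459), and it was 0.31 without heifers 170, 172 and 294, when the change was -0.32 in DG, -0.38 in BG and -0.69 in UG (called, adjusted p = 0.0494). Since *CDHR2* was singled out by its values in those heifers, leaving them out favours this call.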

How the data were processed

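RNA of ruminal papillae was sequenced for 15 heifers on 3 diets (45 samples). Per the labels and the paper's methods, the authors used CASAVA 1.8, TopHat2 2.0.10 and HTSeq and deposited RPM. The values of a sample add up to 1000000, so RPM is taken here as relative to the reads on genes, although the paper's formula names mapped reads. All values were whole reads within 0.01 read (100%), so reads were recovered for edgeR 4.0.16 (quasi-likelihood) and DESeq2 1.42.0. edgeR called 0 genes for the interaction, 175 within BG and 177 within UG. The other steps used R 4.3.3, Python 3.11.15, numpy 2.4.6, pandas 2.3.3 and scipy 1.17.1. In the main analysis limma 3.58.1 was fitted to log2(RPM + 1) of the 30 samples with heifer as a block, group by diet terms and Benjamini-Hochberg adjustment. Changes were called at an adjusted p under 0.05 and a fold over 1.5. Such values understate changes of low genes. The fit was tested on simulated data. The block pairs samples of the same animal: deviations of the 2 samples of a heifer correlated at a median of 0.392 (15 pairs), against -0.100 for different heifers (60 pairs). Deviations from a mean add up to 0, so the value for different heifers is pulled below 0 and is no independent reference. Response sizes were compared by exact permutation over heifers, two-sided. No pair of samples agreed within sampling noise.

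Named genes were the 12 with the smallest interaction p, the 4 in each direction with the largest differences or changes, up to 5 per group called in that group only, and genes with a symbol in the paper. Those without a symbol are limited to 4. Members and lists were chosen with earlier results of these data known. With 0 of 24616 IDs matched to a symbol in the reference table, 16 gene lists and 9 marker lists could not be used, and no sequence or coordinate is printed. Alternatives were the pseudocount (0.1 or 0.5), scaling, filter, tool, block, samples in the fit, fold minimum and leaving out each heifer. Leaving out heifers 170, 172 and 294 together was chosen after seeing the data. Per the paper, each lane held samples of all 3 diets, but the lane of each sample was not given in the sources used here.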

Additional observations from a re-analysis of the deposited data

Results flagged for a closer look

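Of 81 sets of 5 heifers examined for a heifer far from its group, 5 held one, where chance gives about 1 in 20. ENSBTAG00000013831 changed by -3.49 in DG heifer 182, against -0.01 to 0.35 in the other DG heifers. ENSBTAG00000008743 changed by 0.82 in DG heifer 170, against -0.33 to -0.04. *BOLA-A* changed by 0.17 in DG heifer 192, against -0.37 to -0.25. In UG heifer 352, *BMP6* changed by 0.92, against -1.46 to -0.86 in the other UG heifers, and *CDHR2* by -1.68, against -0.56 to -0.16. Each was flagged because its gap to the nearest heifer took up most of the range of the group.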

How the results depend on the processing

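The number of genes called within BG was 265 and within UG 287. It was 153 and 176 after TMM scaling, 151 and 175 with median-of-ratios scaling, 117 and 172 without the filter, 175 and 177 by edgeR, 166 and 34 with only the group's own samples in the fit, and 822 and 835 without a fold minimum. Without the replicate block it was 91 in BG, 155 in UG and 0 in DG. Leaving out each heifer in turn gave 5 to 328 genes in BG, 29 to 493 in UG and 0 to 3 in DG, where DESeq2 called 115 and the fit of all 45 samples 20. Leaving out heifers 170, 172 and 294 together, chosen after seeing the data, left 0 genes in BG (smallest adjusted p 0.0425). DESeq2 called 12 genes for the interaction, 11 for DG against UG and 8 for BG against UG, and the other alternatives called 0 in each. The cause of these shifts was not tested. For the size of the response, group held 3.84% to 20.8% of the variance with each heifer left out and 24.1% without those 3, and for the change profiles 16.9% to 20.9% and 19.5%, with no p under 0.05. Over 65 comparisons (each named gene's pair of groups with the smallest p, and its change in a group where it was named for that change), of 1755 alternative values 1675 kept direction and call, 69 lost the call, 10 gained it and 1 changed sign: *BMP6* in DG minus BG was -0.12 without DG heifer 170, against 0.19, neither called, with 0.76 the highest value on leaving out a heifer (182). Outside these comparisons, the changes of *KLK10*, CXCL6 and *CDHR2* in BG (-0.56, -0.58 and 0.41) changed sign without heifers 170, 172 and 294 (1.37, 0.81 and -0.38), none of them called. For the typical gene, a difference between groups had to exceed 1.27-fold to reach an unadjusted p under 0.05 in limma, and to be larger still to be called.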
